A study of Mus musculus with 469 samples.

Results

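The cells described here are single cells of the mouse olfactory epithelium that were sorted for a Neurog1-eGFP reporter and also held mRNA of Neurog1 itself. Neurog1 is a basic helix-loop-helix (bHLH) transcription factor of the committed neuronal precursors of this tissue, and a reporter protein can outlast the mRNA, so a sorted cell may have left the precursor state. Members were chosen on the measured level of Neurog1: a library entered with 1000 or more genes at a value of 1 or more and Neurog1 at CPM 10 or more (CPM is a value scaled by its library's column sum). The rule gave 52 cells. The sort of uninjured epithelium gave 23 of 46 cells that passed the gene filter and of 61 deposited. The sort made 5 days after olfactory bulbectomy gave 17 of 46 passing and 51 deposited, and the 14-day sort gave 12 of 25 passing and 26 deposited. They were set against 54 Neurog1-negative cells of the same sorts (Neurog1 below CPM 1), of which 20, 26 and 8 came from the uninjured, 5-day and 14-day sorts. A further 11 cells with Neurog1 between CPM 1.48 and 8.71 entered neither class.

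All Neurog1 sorts came from mice of strain FVB Neurog1-eGFP, genotype Neurog1-eGFP+, aged 8 weeks, captured on the Fluidigm C1 system from polyadenylated RNA. Olfactory bulbectomy removes the target of the sensory neurons, which then die and are replaced from basal progenitors. The labels named no animal, so each sort was 1 sample, cells were not replicates, and no test was run. Intervals are exact Clopper-Pearson 95% intervals, cover the counting of cells only, and do not include the spread between animals. Every ratio below is on the log2 scale and compares means of CPM with 1 added, so that ratios of low genes are understated. Where a class was listed at 0, levels are given in place of a fold, except in list medians and in the plot of named genes, where the added 1 sets the ratio.

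In the olfactory epithelium, globose basal cells divide and pass through a series of bHLH factors. Neurog1 and then Neurod1 mark committed precursors, and Nhlh1 and Nhlh2 follow as the cells leave the cycle. The daughter neurons first express growth-associated genes such as Gap43 and Gng8 and extend an axon, and later take up the odorant transduction genes, among them Gnal, Cnga2, Adcy3 and Omp.

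A pair of libraries of the 5-day sort (numbers 90 and 91) correlated at 0.994 over log2(CPM + 1), and another (74 and 76) at 0.961. The highest other pair reached 0.641 and the median pair 0.401. These 2 values were taken over all pairs within and between sorts, with OMP-eGFP libraries sorted 14 days after bulbectomy among them. Libraries 90 and 91 were both members. Each alike pair was joined to its mean and counted as 1 cell, which turned 53 member libraries into 52 cells and 55 negative libraries into 54. The libraries 74 and 76 listed Neurod1 at 0 and 3037 CPM although their other genes were alike, so the negative cell made from them holds 1522 CPM. With both pairs left out, or with all 4 libraries counted apart, no named gene reversed. Recovered sequencing depth had a median of 894862, 1315489 and 976899 fragments in members of the uninjured, 5-day and 14-day sorts and 737132, 1122396 and 1242941 in negative cells. Median genes found per member were 2747, 2857 and 2905, against 2932, 3048 and 2573 in negative cells.

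Neurog1 itself ranged from CPM 13.8 to 397.6 with a median of 49.3 in the uninjured members. At 5 days it ranged from 10.97 to 384.2 (median 70.9), and at 14 days from 14.8 to 579 (median 73.2). The 3 groups overlapped over nearly their whole range. The cells just inside the threshold stood at 10.97 and 11.2, and those just outside at 8.09 and 8.71. Of the negative cells, 52 of 54 listed Neurog1 at 0. Members made up 50% of the kept uninjured cells (95% interval 34.9 to 65.1%). They were 36.96% of the 5-day cells (23.2 to 52.5%) and 48% of the 14-day cells (27.8 to 68.7%), and all 3 intervals overlap.

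Neurod1, Tex15 and Cxcr4, the markers that came with the label of precursors, were read first. Their direction is therefore no independent check of the label. At CPM 10 or more, from here on called found, Tex15, a gene best known from meiosis, was found in 42 of 52 members and 21 of 54 negative cells. Cxcr4, the chemokine receptor that responds to Cxcl12, was found in 35 members and 17 negative cells. Neurod1 was found in 20 members and 6 negative cells. At least 2 of the 3 genes were found in 36 of 52 members (69.2%, 54.9 to 81.3%) and 14 of 54 negative cells (25.9%, 14.96 to 39.7%). None of the 3 was found in 5 members and 26 negative cells. The markers were thus found more often in members than in the negative cells of the same sorts, but 16 of 52 members held fewer than 2 of them. At 5 days the mean of Tex15 was alike in both classes, with a ratio of 0.02 (-0.80 to 0.55 with 1 library left out), against 1.47 for uninjured cells and 4.15 at 14 days.

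A gene was called measurable when its mean reached CPM 5 in members or in negative cells, which 10141 genes did. Of these, 496 were more than 2-fold higher in members in all 3 sorts, or 4.89%, and 3.58% were more than 2-fold lower in all 3. The median log2 ratio over all genes was 0.1. At any size, 16.02% of the measurable genes were higher in members in all 3 sorts and 12% were lower in all 3. For every list described next, the first 2 shares are the background of the 2-fold counts. The last 2 are that of the counts at any size. The lists were summarised by counts and medians only, since members were chosen on a gene measured in the same libraries.

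The bHLH cascade and the genes around it were read against these shares. Of 19 genes listed, 14 were measurable, 10 were higher in members in all 3 sorts and 7 were more than 2-fold higher in each (Neurod1, Nhlh2, Hes6, Cxcr4, Mfng, Cbfa2t2 and Elavl4). None was lower in all 3. Their median log2 ratio was 1.87, or 1.82 without genes listed at 0 in a class. Neurod1, Tex15 and Cxcr4 were also the label's markers, so their direction is no independent evidence.

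Neurod1, the bHLH factor next in the series, ranged from 0 to 3318 CPM in uninjured members, from 0 to 2766 at 5 days and from 0 to 2599 at 14 days. Its medians were 0, 0 and 1.78 CPM. Most members did not reach CPM 10, and several of the rest were very high. Its mean was 428.5, 604.5 and 634 CPM in members and 62.6, 78.1 and 0 in negative cells. The log2 ratio was 2.76 in the uninjured sort, or from 2.23 to 6.59 with 1 library left out. At 5 days it was 2.94, or from 2.57 to 4.83 with 1 library left out, and at 14 days all 8 negative cells listed Neurod1 at 0. Of the 6 negative cells with Neurod1, 1 was the joined cell of libraries 74 and 76.

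The paired factors Nhlh1 and Nhlh2 differed from each other. Nhlh2 had medians of 231.5, 443.2 and 306.6 CPM in members, with maxima of 2119, 2439 and 1780, and medians of 0, 0 and 9.27 in negative cells, with maxima of 2313, 1398 and 681. The ranges of the classes overlapped, yet it was found in 39 of 52 members (75%, 61.1 to 85.97%) and 16 of 54 negative cells (29.6%, 17.98 to 43.6%). Its log2 ratio was 1.41, 2.14 and 1.92, a mean of 1.82 ± 0.37 (SD over the 3 sorts). With 1 library left out it ranged from 1.19 to 2.67, from 1.88 to 2.71 and from 1.58 to 3.04. Nhlh1 had a ratio of -0.23, 0.21 and 0.28 and was found in 40 members and 32 negative cells. Its mean was 97.8, 136.1 and 99.5 CPM in members and 115.2, 117.5 and 82.03 in negative cells. In each sort the sign of the Nhlh1 ratio turned when 1 library was left out (-0.45 to 0.34 in the uninjured sort).

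The promoters of this pair are printed because neurogenins and NeuroD factors bind E-boxes and both windows hold the same one. Each runs 5′ to 3′ along the gene's own strand from 250 bases before to 50 after the start (RefSeq, GRCm38.p6, while the deposited tables used mm9). Capitals mark CAGATG, searched on both strands (CATCTG on the other). Nhlh1 lies at chr1:172057547-172057846 on the minus strand and Nhlh2 at chr3:102009895-102010194 on the plus strand.
Nhlh1: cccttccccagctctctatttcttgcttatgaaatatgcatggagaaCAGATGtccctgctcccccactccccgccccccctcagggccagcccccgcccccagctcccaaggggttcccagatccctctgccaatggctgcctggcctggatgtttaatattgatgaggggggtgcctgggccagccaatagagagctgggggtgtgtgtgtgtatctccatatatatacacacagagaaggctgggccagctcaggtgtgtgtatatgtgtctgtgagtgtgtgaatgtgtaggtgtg
Nhlh2: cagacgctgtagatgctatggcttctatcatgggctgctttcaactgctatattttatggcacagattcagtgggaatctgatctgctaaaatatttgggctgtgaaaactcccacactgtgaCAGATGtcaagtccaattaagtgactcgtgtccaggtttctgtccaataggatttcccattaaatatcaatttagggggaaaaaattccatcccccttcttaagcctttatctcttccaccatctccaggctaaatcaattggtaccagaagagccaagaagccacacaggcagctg
The letters CAGATG or CATCTG occur in 17.2% of all 32851 promoter windows, and 19.2% of all genes have them in at least 1 window. They occur in 5 of 15 matched genes of the cascade list (33.3%), and in 6 of 13 matched genes of the mature neuron list (46.2%), whose median ratio has the opposite sign. Of the genes named by rule, 1 of 8 matched higher and 2 of 9 matched lower genes hold them. A match describes the letters in this window only, and neither binding nor an effect on the level of a gene was tested.

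Mfng, a Fringe enzyme that modifies Notch receptors, was found in 16 of 52 members and in none of 54 negative cells, in which it was listed at 0 throughout. Its mean in members was 24.2, 59.4 and 57.1 CPM, with maxima of 227.8, 413.6 and 348.8. Hes6, a bHLH protein of neuronal differentiation, averaged 72.9, 43.3 and 103.3 CPM in members and 2.15, 19.3 and 6.92 in negative cells, with ratios of 4.55, 1.13 and 3.72. The 5-day ratio of Hes6 was 0.24 when 1 library was left out. Cbfa2t2, a corepressor of the ETO family, averaged 301.7, 73.99 and 244.9 CPM against 50.6, 14 and 0.122. Elavl4, a neuronal RNA-binding protein, had ratios of 1.88, 1.64 and 2.05 and was found in 46 cells of either class, so the classes differed mainly in its level. The 5-day ratio of Cxcr4 was 1.17, or 0.95 with 1 library left out. Sox11, a transcription factor of early neurons, was found in all 52 members and 53 of 54 negative cells, at means of 12844, 12398 and 9429 CPM against 4459, 4755 and 6794. Insm1, a zinc-finger factor of delaminating precursors, was found in 25 cells of either class. Gadd45g and Btg2, both linked to growth arrest, were higher in members in the uninjured and 14-day sorts and lower at 5 days.

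**Figure D1:**
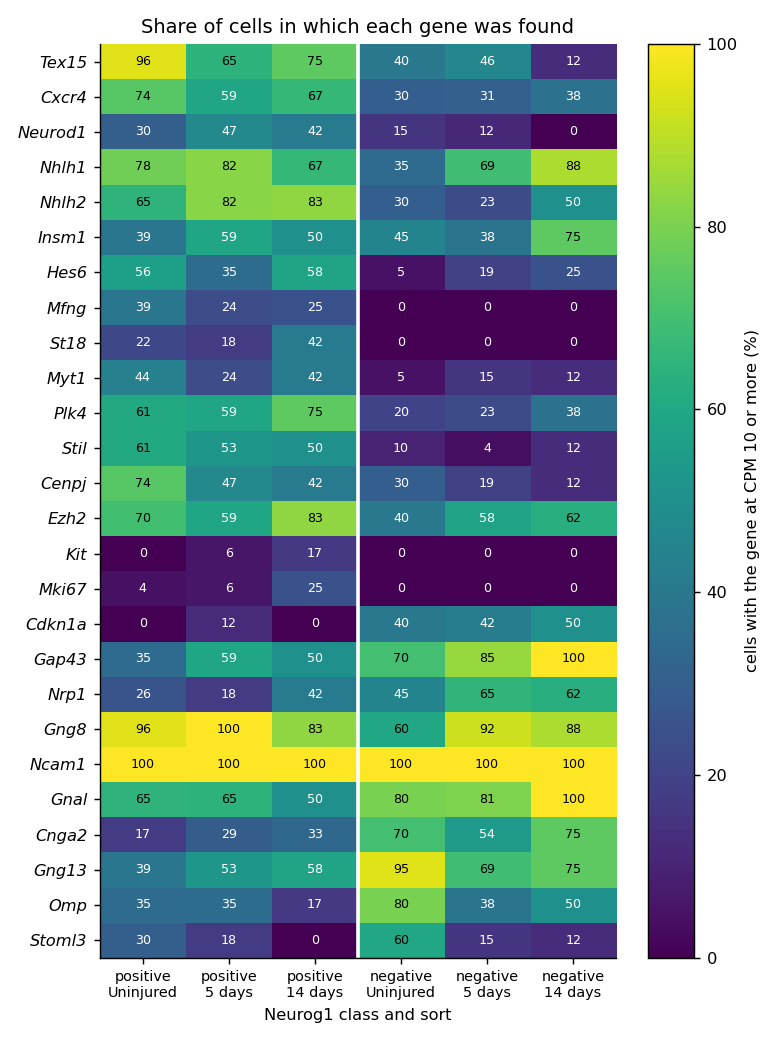
Percent of cells in which each gene was found at CPM 10 or more (numbers and colour), for Neurog1-positive cells (23, 17 and 12) and Neurog1-negative cells (20, 26 and 8) of the 3 sorts. Mfng and St18 were found in members only, Nhlh1 and Ncam1 in both classes, and Gap43, Gnal and Cnga2 more often in negative cells.

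Markers of cells earlier in the lineage were read next. Kit, a receptor of cycling globose basal cells, was found in 3 members (1 at 5 days and 2 at 14 days) and in 0 of 54 negative cells, which allows a share of up to 5.56% (3 of 54 cells, or 6.6% as the upper end of the exact interval). Of 10 globose basal genes, 6 were measurable and 2, among them Ezh2, were more than 2-fold higher in all 3 sorts, at a list median of 2.44, while the 1 gene never listed at 0 in a class, Ezh2, stood at 1.47. Hes1 was listed at 0 in all members. The Notch ligand gene Dll1 was also at 0 in all of them, and Dll3 reached a mean of 0.371 CPM at 5 days. Of 18 Notch pathway genes, 13 were measurable and 2, Mfng and Rbpj, were higher in all 3 sorts, at a list median of -0.38. Rbpj, the DNA-binding partner of Notch, turned the sign of its ratio in the uninjured and 5-day sorts with 1 library left out (-0.43 and -0.63).

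Among 17 measurable neuronal transcription factors of 18 listed, 9 were higher in members in all 3 sorts, 4 of them more than 2-fold in each, and none was lower in all 3, at a list median of 0.35. Lhx2, Myt1 and St18 were among the 4. Lhx2, a LIM homeodomain factor needed for olfactory neuron development, had medians of 1064, 977 and 369.97 CPM in members and 190.3, 180.8 and 137.2 in negative cells. It was found in 51 of 52 members and 46 of 54 negative cells, at a ratio of 1.63 ± 0.36 (lowest 0.97, at 14 days with 1 library left out). St18 and Myt1 are related zinc-finger factors of neuronal differentiation. St18 was found in 13 members, at maxima of 942, 2161 and 988 CPM, and in no negative cell. Myt1 was found in 19 members and 6 negative cells, with ratios of 4.06, 2.74 and 1.29, and the 14-day ratio turned to -0.16 without 1 library. The Ebf factors, which act in olfactory neurons of every age, were higher by less: Ebf2 had ratios of 0.56, 0.41 and 1.10 and Ebf1 of 0.05, 0.21 and 0.71, the first 2 turning to -0.03 and -0.01 with 1 library left out.

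**Figure D2:**
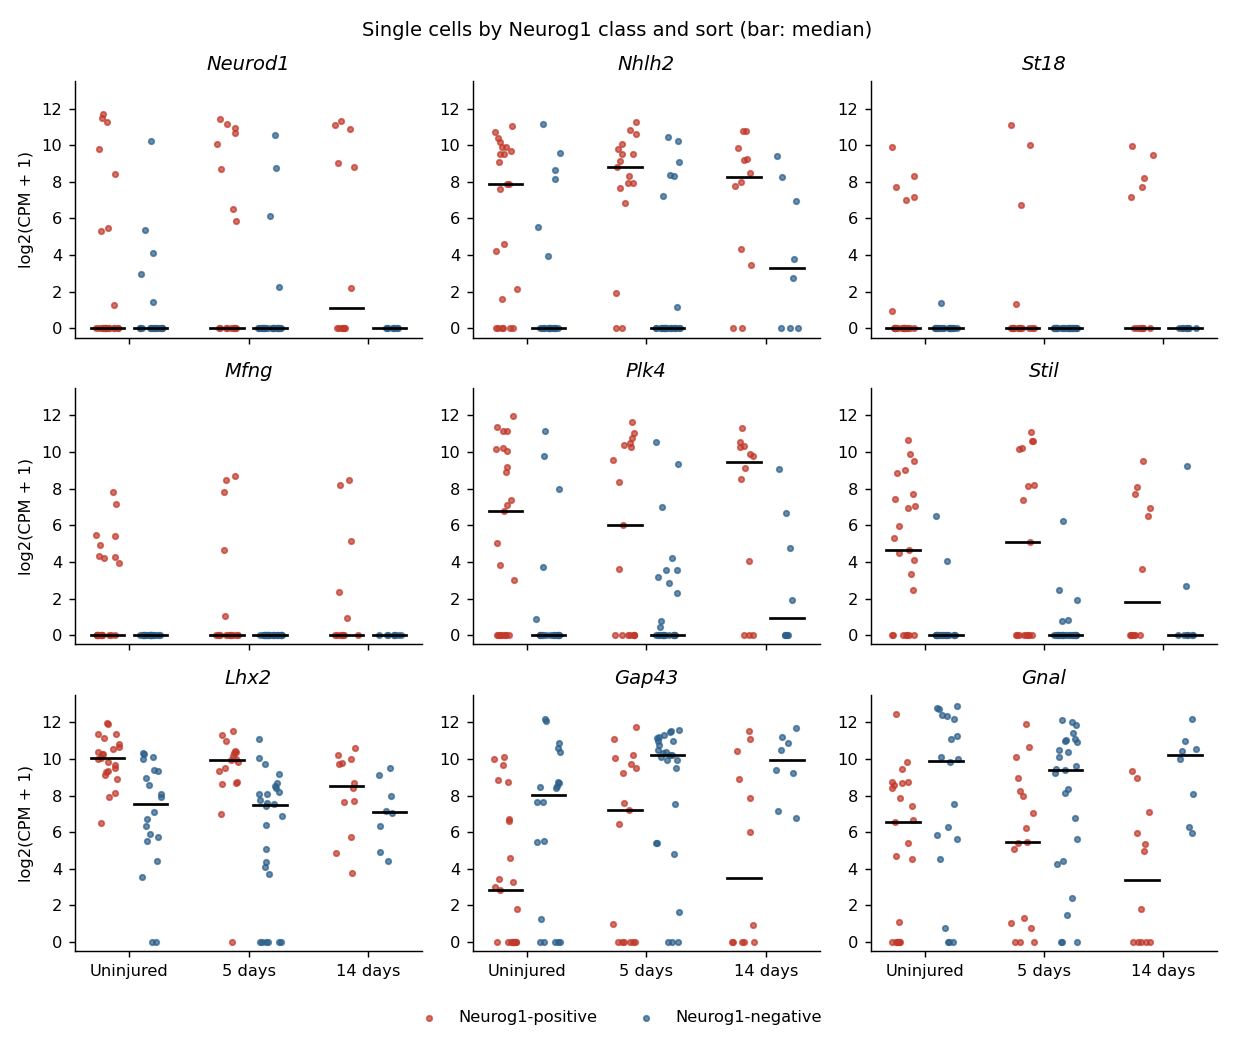
Level of 9 genes in each cell as log2(CPM + 1), by sort, for Neurog1-positive (red) and Neurog1-negative (blue) cells, with a bar at the median. St18 and Mfng are at or near 0 in every negative cell, Lhx2 is shifted upward in members at all times, and Gap43 and Gnal have lower medians in members in all 3 sorts.

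Several genes that build new centrioles were higher in members as well. Olfactory neurons amplify centrioles before they grow many cilia, and Plk4 and Stil start the formation of a procentriole. Of 15 genes listed, 14 were in the tables and 11 measurable, of which 5 were higher in all 3 sorts, 2 more than 2-fold in each (Plk4 and Cep63) and none lower in all 3. The list median was 2.16, or 1.82 without genes listed at 0. The ratio of Cep63 was 1.66, 1.56 and 1.03, and 0.73 at 5 days and 0.16 at 14 days with 1 library left out. Plk4 had medians of 108.1, 64.1 and 718 CPM in members, with maxima of 3927, 3180 and 2547, and medians of 0, 0 and 1.42 in negative cells. It was found in 33 of 52 members and 13 of 54 negative cells, at a ratio of 2.74 ± 0.64. By sort the ratio was 2.02, 2.97 and 3.23, and with 1 library left out it ranged from 1.68 to 3.52, from 2.62 to 4.39 and from 2.90 to 5.32. Stil was found in 29 members and 4 negative cells. Its ratio was 5.13 and 6.87 in the uninjured and 5-day sorts but 0.62 at 14 days, where 1 negative cell held 609 CPM and leaving out 1 library moved the ratio between -0.26 and 6.08. Cenpj, which sets centriole length, was found in 30 members and 12 negative cells, with ratios of 3.50, 0.91 and 3.90. Sass6, the cartwheel protein, was found in 12 members and 2 negative cells but averaged 2.02 CPM in members at 5 days.

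Few members held several genes of division, although Plk4 was found in 33 of them. At least 5 of 17 genes of G2 and M phase were found in 4 of 52 members (7.69%, 2.14 to 18.5%) and in 0 of 54 negative cells. Of the 4, 2 came from the 14-day sort and 1 from each of the others. All 4 were high in Neurod1, at 3318, 2766, 2599 and 2157 CPM. The 5-day cell was the joined pair of libraries 90 and 91. Most of the G2 and M signal of the uninjured and 5-day members lay in these cells: the summed level over the list averaged 664, 129.3 and 1900 CPM over members and 7.64, 29.1 and 606 without the 4. A 14-day member with 4 such genes held a sum of 5390 CPM. The list's 5 genes that were more than 2-fold higher in all 3 sorts (Mki67, Ccna2, Cenpe, Cenpf and Ube2c, of 16 measurable, list median 3.40, with 1 gene never listed at 0 in a class) rest on these few cells, and in at least 1 sort each lost its 2-fold difference with 1 library left out. Of 11 measurable S phase genes 2, Rrm1 and Hells, were higher in all 3 sorts, none more than 2-fold in each, at a list median of 0.87, or 0.05 over the 5 genes never listed at 0 in a class. Both turned sign in the uninjured sort with 1 library left out (-0.56 and -6.71).

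Of 10 genes of cell cycle exit, 8 were measurable, 1 was higher in all 3 sorts (Gadd45a) and 2 were lower, at a list median of -0.55, or -0.83 without the gene listed at 0. Gadd45a and Cdkn1a were past 2-fold in each sort, in opposite directions. Cdkn1a, the p21 inhibitor of cyclin-dependent kinases, was found in 2 of 52 members (3.85%) and 23 of 54 negative cells (42.6%). Its mean was 0.0298, 17.6 and 0.987 CPM in members and 30.6, 43.6 and 120.1 in negative cells. Gadd45a, a stress and growth-arrest gene, was found in 20 members and 5 negative cells, with ratios of 2.85, 2.39 and 4.11. Among 17 measurable chromatin regulators of 18 listed, 7 were higher in all 3 sorts and 1, Dnmt3a, lower, at a list median of 0.40. Dnmt3a, a DNA methyltransferase, turned to 0.01 at 5 days and 0.21 at 14 days with 1 library left out. Of the list only Ezh2, the methyltransferase of Polycomb complex PRC2, was more than 2-fold higher in each sort, at a ratio of 1.47 ± 0.17 and in 36 members and 28 negative cells. Its uninjured ratio was 0.96 with 1 library left out. Suz12 and Rbbp4, its partners in the complex, had ratios of 1.17, 0.48 and 0.22 and of 1.02, 0.61 and 1.44. That of Suz12 at 14 days turned to -0.63 with 1 library left out.

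Genes of immature neurons were present in both classes. All 15 listed were measurable, 3 were higher in members in all 3 sorts, 6 were lower and only Gap43 was lower by more than 2-fold in each. The list median was -0.34. Gap43 had medians of 6.19, 145.5 and 32.6 CPM in members and 267.6, 1185 and 1065 in negative cells, with ranges that overlapped. It was found in 24 of 52 members (46.2%, 32.2 to 60.5%) and 44 of 54 negative cells (81.5%, 68.6 to 90.7%), at a ratio of -1.43 ± 0.65. The ratio was -2.18, -1.01 and -1.11, and with 1 library left out it passed below 2-fold at 5 days (-0.92) and 14 days (-0.76). Gng8, the G protein gamma subunit of immature olfactory neurons, was found in 49 members and 43 negative cells, and its ratio was 0.98, 0.44 and 0.16 (the last -0.13 with 1 library left out). Ncam1, a neural adhesion molecule, was found in every cell of either class, at a ratio of -0.74 ± 0.13. Nrp1, a semaphorin receptor of growing axons, was found in 14 members and 31 negative cells. Its ratio was -1.07, -1.20 and -0.53, the last turning to 0.40 with 1 library left out.

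Neurod1 and Gap43 mostly marked different members. Neurod1 without Gap43 was found in 16 of 52 members, Gap43 without Neurod1 in 20, both in 4 and neither in 12. In negative cells these counts were 3, 41, 3 and 7 of 54. Among the 25 members with Neurog1 between CPM 10 and 50, Neurod1 was found in 3 and Gap43 in 15. Among the 27 at CPM 50 or more, Neurod1 was found in 17 and Gap43 in 9. St18 was found in 0 and 13 of these groups, Mfng in 2 and 14, and Nhlh2 in 14 and 25. Splitting members by the level of Neurog1 repeats the selection, so these counts are a description.

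**Figure D3:**
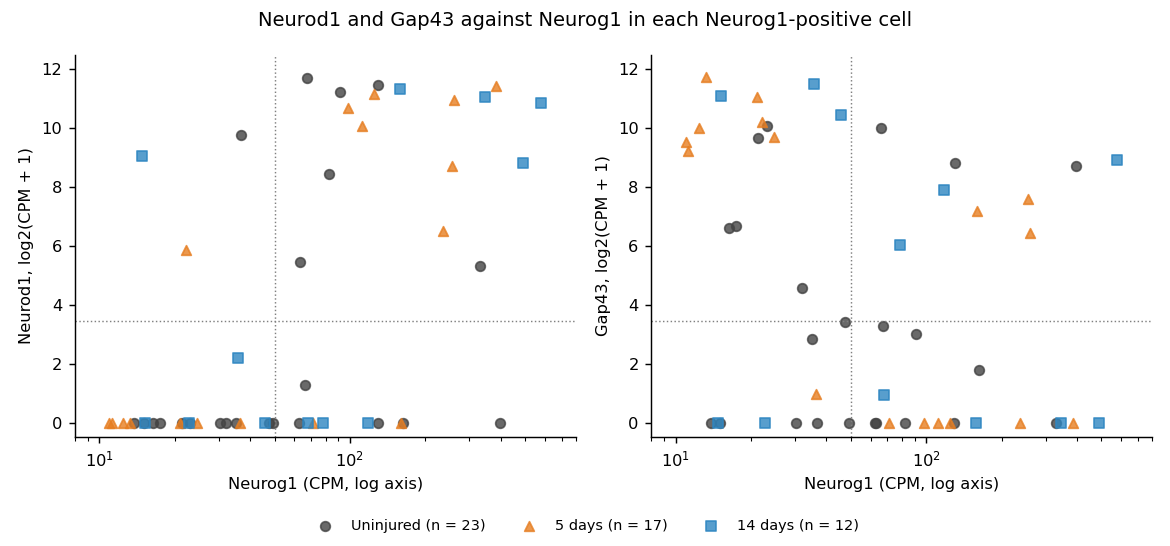
Each of the 52 members by its Neurog1 level (CPM, log axis) and its Neurod1 (left) or Gap43 (right) level as log2(CPM + 1), with symbols for the 3 sorts. Dotted lines mark Neurog1 at CPM 50 and the detection limit of CPM 10: Neurod1 was found in 17 of 27 members right of the line and 3 of 25 left of it.

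Several transduction genes of mature sensory neurons were lower in members. Of 16 listed, 15 were measurable, 7 were lower in all 3 sorts, 3 of them (Gnal, Cnga2 and Cnga4) by more than 2-fold in each, and none was higher in all 3. The list median was -1.74, or -1.57 without genes listed at 0 in a class. At 14 days Cnga4 stood at -4.16, or -0.24 with 1 library left out. Gnal, the G protein alpha subunit that couples receptors to adenylyl cyclase, had medians of 93.03, 44 and 16.5 CPM in members and 955, 679 and 1197 in negative cells, at a ratio of -2.40 ± 1.09. It was still found in 32 of 52 members, against 45 of 54 negative cells. Cnga2, the channel subunit opened by cyclic AMP, was found in 13 members and 34 negative cells, at a ratio of -2.76 ± 0.87. Omp, the mature neuron marker, was found in 16 members and 30 negative cells. Its ratio was -3.77, 0.66 and -0.78 in the order of the sorts, and the last 2 turned sign when 1 library was left out.

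Odorant receptors were likewise found in fewer members. A receptor at CPM 50 or more was found in 34 of 52 members (65.4%, 50.9 to 78.03%) and 47 of 54 negative cells (87.04%, 75.1 to 94.6%), and one at CPM 200 or more in 24 and 45. The summed receptor level had a median of 384.1, 191.9 and 528 CPM in members and 4386, 2926 and 9329 in negative cells, with overlapping ranges. At least 2 receptors were found in 24 members and 29 negative cells. Receptor genes have near-identical copies, so which receptor a fragment belongs to is uncertain.

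Of 18 measurable axon guidance and adhesion genes, 2 were higher in all 3 sorts and 5 lower, with 1 in each direction past 2-fold in each sort, at a list median of -0.68. Plxna3, a semaphorin coreceptor, was found in 3 members and 12 negative cells, with ratios of -5.04, -4.26 and -2.33, the last turning to 1.64 with 1 library left out. Robo2, a Slit receptor, was found in 32 and 26. Of 13 measurable genes of the unfolded protein response, 4 were lower in all 3 sorts (Atf5, Herpud1, Hsp90b1 and Sel1l) and 1, Pdia4, higher, none by more than 2-fold in each, at a list median of -0.77. With 1 library left out Pdia4 turned to -2.20 at 5 days and Sel1l to 0.03 at 14 days. Of 9 measurable immediate early genes, which dissociation can induce, Jun was higher in all 3 sorts while Fos and Dusp1 were lower, Fos by more than 2-fold in each, at a list median of -1.73, or -1.20 without genes listed at 0. Fos was found in 3 members and 10 negative cells, and its uninjured ratio of -1.75 turned to 0.17 with 1 library left out. Dusp1 turned to 0.37 at 5 days and 1.5 at 14 days. The part of dissociation in these values was not tested.

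Among markers of other cell types, none of 9 immune, 4 horizontal basal and 4 erythroid genes was found in any member, and the immune and erythroid lists were at 0 in both classes. At least 1 of 10 sustentacular markers was found in 7 of 23, 10 of 17 and 5 of 12 members, and in 5 of 20, 14 of 26 and 6 of 8 negative cells. At least 3 of them were found in 1 member (at 5 days) and 6 negative cells, and 2 of 8 measurable ones (Sec14l3 and Ugt2a1) were lower in members in all 3 sorts. The summed level of the list reached 292.7, 727 and 1712 CPM in members and 933, 61572 and 1209 CPM in negative cells. A single uninjured member held 55638 CPM of Coch, the leading gene of the microvillar list there. At least 3 of the 6 genes of that list were found in 1 uninjured member. Its highest sum in an uninjured member was 59050 CPM, or 98.1% of its signal over them. The median of that list was 0 in members of all 3 sorts. Measurable genes numbered 3 of 8 for fibroblasts and endothelium, 2 of 6 for Bowman glands, 1 of 5 for ensheathing glia and 3 of 6 for microvillar cells, and none of these was higher or lower in all 3 sorts. A Y-linked gene was found in 40 of 52 members and 42 of 54 negative cells, and Xist in 5 and 6.

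Over all genes, a rule on size and share named 12 genes higher and 12 lower in members. The higher ones included Scg2, a secretogranin of dense-core granules, found in 24 members and 2 negative cells at means of 194.1, 233.7 and 266.96 CPM against 5.6, 0.0266 and 0. Grp, which encodes gastrin-releasing peptide, was found in 20 members and 1 negative cell. Baz1a, a subunit of ISWI chromatin remodellers, was found in 38 members and 8 negative cells, with ratios of 5.08, 2.32 and 6.71. Fgd4, an exchange factor for Cdc42, was found in 23 and 4, with ratios of 4.45, 4.32 and 5.45. Adss, an enzyme of AMP synthesis, was found in 17 and 2. The others were Neurod1, Mss51 (21 members and 1 negative cell), Cacul1 (18 and 6), Amotl1 (16 and 4), Mab21l1 (20 and 5), Gpr56 (19 and 3) and Qser1 (19 and 5). Gpr56 at 5 days and Qser1 at 14 days had ratios of only 0.47 and 0.09, which turned to -0.64 and -2.59 with 1 library left out. The 5-day ratio of Cacul1, 3.56, turned to -1.04, and at 14 days Mss51 was found in 1 member only.

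The 12 lower genes were led by Gca, a calcium-binding protein, found in 4 members and 18 negative cells, with ratios of -6.47, -2.26 and -6.10. Serpine2, a secreted protease inhibitor, was found in 11 and 32, at means of 50.2, 17.4 and 89.7 CPM against 813, 342.9 and 492. Spef2, a protein of motile cilia and flagella, was found in 8 and 22. Brdt, a bromodomain protein named for its role in testis, was found in 4 and 26, and Tmod2, an actin-capping protein of neurons, in 3 and 21. The others were Cdkn1a, Vwa3a (3 and 17), Man1a2 (4 and 18), Acsl6 (8 and 25), Rnf185 (8 and 18), Fam213b (5 and 17) and Erlin2 (6 and 17). Man1a2 at 5 days (-0.42) and Erlin2 in the uninjured sort (-0.71) were less than 2-fold lower. With 1 library left out, Man1a2 turned to 0.40 at 5 days and Vwa3a to 3.32 at 14 days.

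**Figure D4:**
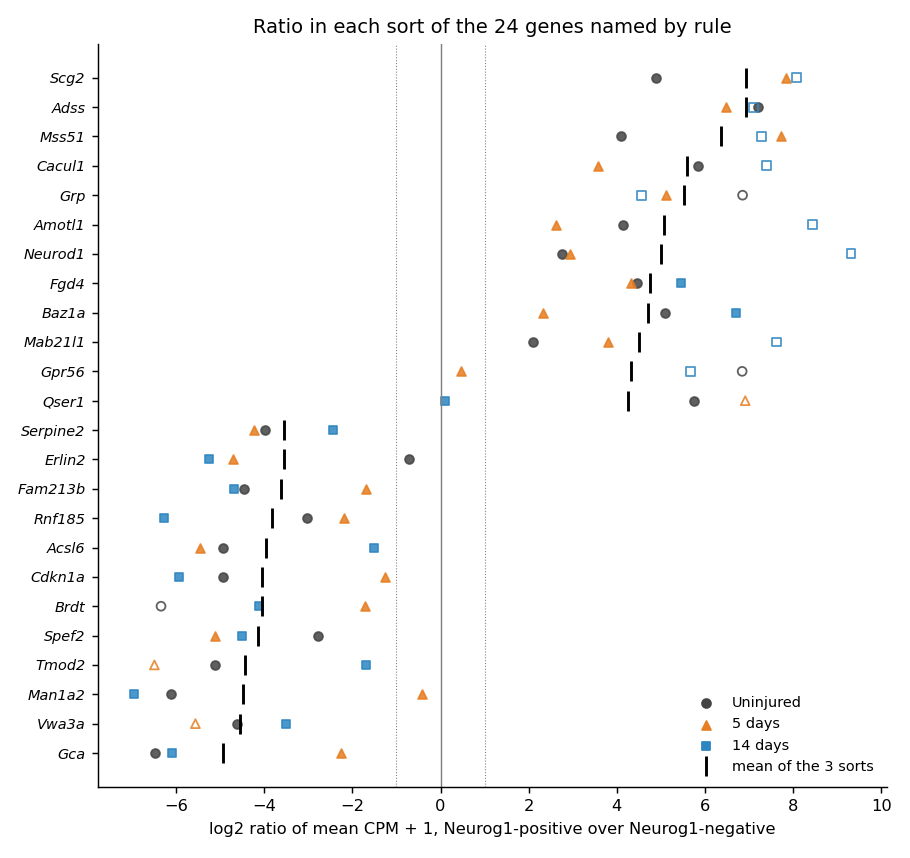
Log2 ratio of mean CPM + 1, Neurog1-positive over Neurog1-negative, in each of the 3 sorts for the 12 higher and 12 lower genes named by rule, with a bar at the mean of the sorts and dotted lines at 2-fold. Open symbols are sorts in which 1 class was listed at 0, where the added 1 sets the ratio. Among filled symbols the sorts still spread for single genes (Baz1a from 2.32 to 6.71).

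Some of the same genes are given for 42 cells sorted for OMP-eGFP 14 days after bulbectomy. These were mature sensory neurons from mice of strain B6 aged 8 weeks, and sort and strain cannot be told apart. Of the 12 lower genes, Gca averaged 413.7 CPM there, Spef2 675, Tmod2 429.8 and Serpine2 1335, and the rest are not given here. Gnal averaged 5000 CPM and was found in 41 of 42, and Cnga2 averaged 1306. Scg2 averaged 2.64 CPM, Baz1a 4.55, Nhlh2 2.06, Neurod1 1.23 and Plk4 11.6, and Grp, Mfng, St18 and Cxcr4 were listed at 0. Other genes that were higher in members were well above 0 there, among them Adss at 25.5 CPM, Qser1 at 38.4, Cacul1 at 49.4, Cbfa2t2 at 251.2 and Sox11 at 4401.

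Median depth was higher in members in the uninjured and 5-day sorts and lower at 14 days. With every cell thinned to 400000 fragments, 48 cells of each class remained. Here each joined pair was represented by its first library, so the cell of libraries 74 and 76 entered with Neurod1 at 0. Neurod1 was then found in 18 members and 3 negative cells, Nhlh2 in 37 and 15, Mfng in 15 and 0, Plk4 in 30 and 12, Stil in 27 and 3, Gap43 in 24 and 42, Gnal in 29 and 41 and Cdkn1a in 2 and 23. Each count kept its direction.

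The second question was whether members differed with time after bulbectomy. Between 5 days and uninjured, 27.7% of 9170 genes were more than 2-fold higher and 32.3% lower. Between 14 days and uninjured, 28.5% of 9265 genes were higher and 34.7% lower, and between 14 and 5 days 31.4% of 8933 were higher and 32.8% lower. A difference of 2-fold was thus common among all genes in these comparisons. Sex make-up moved with the sorts: Xist was found in 4 of 23, 1 of 17 and 0 of 12 members and a Y-linked gene in 15, 16 and 9, and the part of sex in the values below was not tested.

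Precursor genes were found in members of all 3 sorts. Of the 4 marker genes, only Tex15 passed 2-fold, lower at 5 days (mean 4064 CPM) than in uninjured cells (9014). Leaving out 1 library kept that ratio of -1.15 between -1.97 and -0.94, and Tex15 was found in 22 of 23 uninjured, 11 of 17 5-day and 9 of 12 14-day members. Neurod1 was found in 7 of 23 uninjured members (30.4%, 13.2 to 52.9%). After injury it was found in 8 of 17 (47.1%, 22.98 to 72.2%) and 5 of 12 (41.7%, 15.2 to 72.3%), and these intervals overlap widely. Nhlh2 had ratios of 0.39 at 5 days and 0.08 at 14 days over uninjured, and Plk4 of 0.03 and 0.17. Of 15 measurable cascade genes, 1 was more than 2-fold higher and 4 lower at 5 days over uninjured, and 1 and 2 at 14 days, with list medians of -0.23 and -0.03. For immature neuron genes the medians were -0.12 and -0.01, and for mature neuron genes 0.17 and -0.03.

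**Figure D5:**
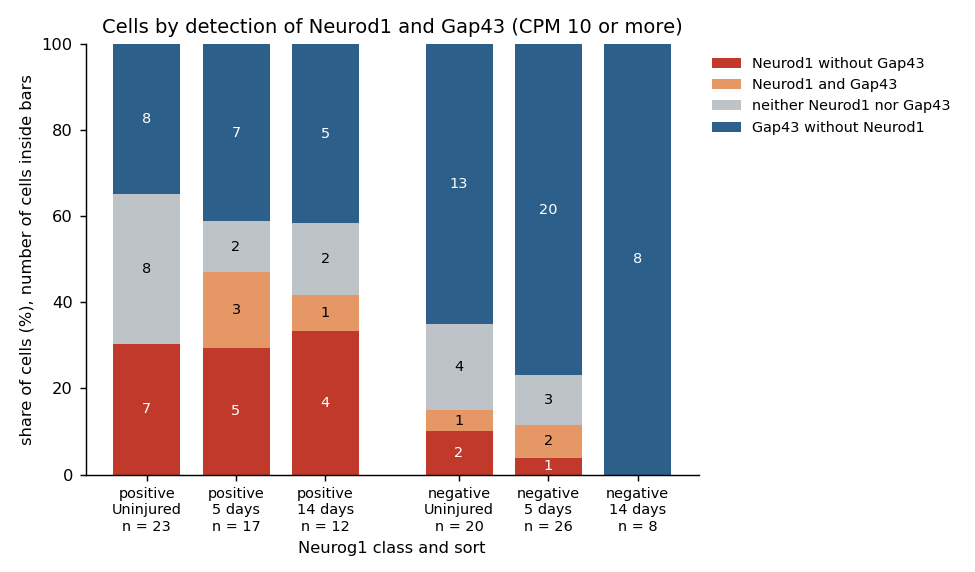
Share of cells (%) by detection of Neurod1 and Gap43 at CPM 10 or more, for members and negative cells of each sort, with the number of cells inside each bar. Neurod1 without Gap43 made up 7 of 23, 5 of 17 and 4 of 12 members, and cells with neither gene 8 of 23, 2 of 17 and 2 of 12.

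Some single genes of the lists, named here and in the next paragraph by no rule, differed more between the sorts. Gap43 averaged 176.6 CPM in uninjured members and 613.5 and 609 after injury, with ratios of 1.79 (1.30 to 2.17 with 1 library left out) and 1.78 (1.17 to 2.16). It was found in 8 of 23, 10 of 17 and 6 of 12. In negative cells Gap43 also averaged less in the uninjured sort (803 CPM) than at 5 and 14 days (1238 and 1315). Rtp1, which carries odorant receptors to the membrane, averaged 95.8, 405.4 and 522 CPM in members and 1390, 560 and 212.9 in negative cells, so the classes ran in opposite directions, a difference that was not tested. Bcl11a, a zinc-finger factor, was found in 4 of 23 (17.4%), 12 of 17 (70.6%) and 3 of 12 (25%) members, at means of 35.6, 516 and 82.2 CPM. Its 5-day ratio over uninjured was 3.82, between 3.02 and 4.92 with any 1 library left out. In negative cells Bcl11a was found in 8 of 20, 16 of 26 and 5 of 8.

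Several genes were lower after injury in members. Over all genes 32.3% were more than 2-fold lower at 5 days over uninjured and 34.7% at 14 days over uninjured. Negative cells are given for Suz12 only, so a shift of the whole sort is not set apart for the others. Suz12 averaged 856, 285.3 and 134.5 CPM and was found in 18 of 23, 12 of 17 and 7 of 12. In negative cells Suz12 averaged 381.3, 204.4 and 114.97, in the same order. Lhx2 averaged 1373, 1074 and 562 CPM and Gng8 145.4, 105.6 and 56.8, and for both the 14-day ratio over uninjured stayed beyond 2-fold when any 1 library was left out (-1.29 for Lhx2 and -1.34 for Gng8). Bach2, a transcriptional repressor, was found in 12, 5 and 5 members at means of 312.2, 101.2 and 42.4 CPM, and Ebf3 averaged 579, 237.5 and 288.8. Ebf1 ran the other way, at 1194, 1809 and 2230.

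The 2 lists of cell division had unlike medians between the sorts, each of which was 1 sample. Of 12 members at 14 days, 2 held at least 5 genes of G2 and M phase. The G2 and M list had a median ratio of -3.56 at 5 days over uninjured, 1.27 at 14 days over uninjured and 5.22 at 14 over 5 days, over 14, 16 and 16 measurable genes. Since single cells carried this list (98.9% of the uninjured and 78.9% of the 5-day signal lay in 1 library each), these medians compare a few cells. The S phase list had medians of -1.25, -0.55 and 0.25 in the same comparisons. At 14 days over uninjured 2 of its 13 measurable genes were more than 2-fold higher and 6 lower, beside 28.5% and 34.7% of all genes. Few cells also weighed on this list: 1 library held 24.5%, 37.5% and 33.3% of its signal in uninjured, 5-day and 14-day members.

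The rule for single genes named 8 higher and 8 lower genes in each comparison. Edc4, a scaffold of mRNA decapping, was found in 13 of 23 uninjured members, listed at 0 in all 17 at 5 days and found in 3 of 12 at 14 days. Insig2, a sterol-sensing regulator of the endoplasmic reticulum, was found in 3, 11 and 0 members, at means of 39.3, 495 and 0.257 CPM. Mrp63, a mitochondrial ribosomal protein, was found in 6, 8 and 6 at 9.99, 361.5 and 109.7 CPM. Stat3, a factor activated by cytokines, was found in 4, 6 and 3 at 5.46, 153.3 and 55.6 CPM. At 14 days Pigm, an enzyme of GPI anchor synthesis, was found in 5 of 12 at a mean of 403.3 CPM, against 0 of 23 and 1 of 17, and Psmd5, a proteasome chaperone, in 7 of 12 against 3 of 23 and 1 of 17. Itgb1, an integrin beta subunit, was found in 10, 4 and 0 members, and Xpo6, an export receptor of actin, in 10, 2 and 0.

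In the comparison that named it, each of these genes stayed past 2-fold in the same direction with any 1 library left out, the smallest remaining ratio being 2.85 (Casc4, 14 days over uninjured). The genes were picked for the most extreme ratios in these same cells, so this is no independent evidence of a difference between the sorts. In another comparison such a gene could hinge on 1 cell. Cnr1, the cannabinoid receptor named for 14 over 5 days, averaged 138.02, 0 and 1295 CPM, and 1 of the 14-day cells held 13976. Without 1 library its ratio of 14 days over uninjured went from 3.22 to 0.05. Further genes named for 5 days over uninjured were Bin3, Tmem131, Clic4, Dolpp1, Nup98 and Tmem87b (higher) and Usp47, Snap91, Endod1, Elmod2, Dnajc10, Irgq and Nup54 (lower). For 14 days over uninjured they were Rcn2, Cth, Ric8, Hmgxb3 and Cenpw (higher) and Coa5, Ppp2r2d, Plekhf2, Stoml3, Trappc8 and Arpp21 (lower). For 14 over 5 days they were Sestd1, Kdm4c, Tbp, Zfp60, Zfp667 and Lrif1 (higher) and Zfp944, Fam107b, Fbxw2, Mterfd1, Fh1, Clpp and Tmem87b (lower).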

How the data were processed

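The authors deposited 2 tables of 23308 entries with 1 column per library. The first holds signal, estimated fragments that the authors scaled to nearly equal sums (600891 to 648150 here, from the values), and the second holds FPKM, also computed by the authors. The submitters' processing notes name build mm9 and the tools STAR 2.5.2a, Cufflinks 2.2.1, Cuffnorm and FastQC. The annotation is not given in the sources used here. Columns of 281 libraries in the first and 331 in the second table were not used. Left out were 27 entries with names turned into dates (0.421% of the signal). No count test was run. Some results are not reported here.

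Signal was divided by the column sum to give CPM. Depth was recovered from the smallest step between values, of which each library's values were whole multiples within 0.05 in a median of 98.6% of cases (lowest 97.8%). The step finder and the ratios were tested on simulated data. PCR fragments carried no molecular identifiers. No doublet caller was run. Groups came from the labels. Ratios used a pseudocount of 1 and needed a mean CPM of 5 in either class. For named genes the rule took the 12 highest and 12 lowest mean ratios of the same sign in all 3 sorts (8 and 8 per injury comparison), with mean CPM of 50 in the higher class and detection in at least 30% of its cells, without receptor, Gm, Rik, mitochondrial and sex-linked genes. Genes of the 24 lists (267 genes, 1 missing) could also be named. Members and lists were chosen with earlier results of these data known. Alternatives covered pseudocounts, filters, thresholds, thinning, the FPKM table and left-out libraries or sorts. Python 3.11.15, numpy 2.4.6, pandas 2.3.3, scipy 1.17.1 and matplotlib 3.10.9 were used.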

Additional observations from a re-analysis of the deposited data

How the results depend on the processing

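For members over negative cells, no direction reversed among 47 listed or named genes that were past 2-fold in all 3 sorts (846 values). Named genes that fell short of 2-fold in a sort, among them Gpr56, Qser1, Man1a2 and Erlin2, were not part of this count. None of 48 ratios named for the injury comparisons reversed (624 values). Both counts leave single left-out libraries aside. Part of each was fixed in advance, since another pseudocount cannot turn the sign of a ratio. Leaving out a sort could not reverse the 47 genes either, because all 3 sorts already shared a direction. Of the shares of genes past 2-fold (4.89% higher and 3.58% lower in members), those whose number of genes moved beyond 1.5 times are given here as percent of the genes tested, and the cause was not tested. A pseudocount of 10 gave 2.2% and 1.58%, a mean CPM of 50 gave 5.03% and 4.38% of fewer genes, and leaving out each gene's 2 highest libraries gave 5.6% and 3.96% of fewer genes. Members at CPM 50 or more gave 6.52% lower. Calls over 2 sorts in place of 3 gave 12.01% and 8.93% without the uninjured sort, 12.7% and 8.82% without the day 5 sort and 9.41% and 11.02% without the day 14 sort, where fewer sorts had to share a direction. For the injury comparisons the mean CPM of 50 gave 26.6% and 24.5% (5 days over uninjured), 28.9% and 27.2% (14 days over uninjured) and 28.4% and 29.1% (14 over 5 days), of fewer genes. Leaving out the 2 highest libraries gave 22.3% and 36.97%, 16.4% and 49.7%, and 23.4% and 42.5%. The 49.7% stayed within 1.5 times in number of genes and is given beside its partner only. Taking out 2 libraries removes a larger part of the 14-day members than of the more numerous members of the other sorts. At Neurog1 CPM 50 or more the members made up 23.9% of the uninjured, 19.6% of the 5-day and 28% of the 14-day sort. Joining the alike libraries, leaving them out, list medians without genes at 0 and the division list without 4 cells were chosen after seeing the data. No paired analysis was possible because the labels give no animal and replicate numbers only name cells. With 12 to 23 members per sort, a share of 0 at 14 days allows up to 25% (3 of 12 cells).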
